A study of Mus musculus with 14 samples.

Results

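The mitosis genes are 44 genes whose products drive or mark cell division, from the entry kinase Cdk1 and its cyclins to the proteins that pinch the daughter cells apart. They were taken as named members from both deposited count tables, which share 22842 genes, and all 44 were found in both. The series followed adult mouse blood stem cells and their progeny over time by inducible lineage tracing in the steady state, and measured single Lin- Tom+ cells, cells without mature lineage markers that carry the red tracing reporter, in 96-well plates with a Smart-seq2 protocol modified to read transcripts at their 3′ end. At day 3 there was 1 mouse (m4539, 2 plates), at day 10 there was 1 mouse (m4533, 3 plates) and at day 17 there were 3 mice (m4528 with 4 plates, m605 and m606 with 2 plates each). A further day 17 plate held cells of m605 and m606 together and was kept out of all tests. Every group was Lin- Tom+, so no unlabelled cells serve as a control. The labels name no promoter or Cre driver behind the reporter, no strain or age, and no event from which the days are counted. With 1 mouse at day 3 and 1 at day 10, the day and the mouse cannot be told apart at those times.

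A cell enters mitosis when cyclin B and Cdk1 become active together, with Plk1 and Aurora kinases acting beside them. Kinetochore proteins then attach the chromosomes to the spindle, the checkpoint kinases hold the cell until attachment is complete, and the anaphase-promoting complex, through Cdc20, has cyclin B and securin destroyed so that the chromosomes separate and cytokinesis follows. Transcripts of these genes accumulate late in the cell cycle. In the adult marrow most stem cells are quiescent, while progenitors divide often. As the tables spell them, the members by role were 11 kinases, cyclins and partners (CDK1, CCNB1, CCNB2, CCNA2, CCNF, CDC25C, PLK1, AURKA, NEK2, CKS2, CDCA3), 8 checkpoint and kinetochore genes (BUB1, BUB1B, TTK, NUF2, NDC80, CENPA, CENPE, CENPF) and 3 of the chromosomal passenger complex (AURKB, BIRC5, CDCA8). The others were 2 of the anaphase-promoting pathway (CDC20, UBE2C), 11 spindle and motor genes (KIF11, KIF20A, KIF20B, KIF2C, TPX2, NUSAP1, HMMR, DLGAP5, TACC3, CKAP2, GTSE1), 5 of chromosome structure and proliferation (TOP2A, SMC4, HMGB2, MKI67, CDCA2) and 4 of cytokinesis (ECT2, ANLN, RACGAP1, KIF23). Below they are written in mouse style.

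Many genes of this kind share promoter letters known as the cell cycle homology region, TTTGAA or TTCGAA, and the CCAAT box, so the promoters of members that were found together in the same cells are shown here first. RefSeq promoters of build GRCm38.p6, 250 bases before to 50 bases after the gene start, matched 36 of the 44 members. The sequences below are the 150 bases before the start, 5′ to 3′ on the gene's strand, with the searched letters on either strand in capitals (TTCAAA and ATTGG are the reverse complements). Cdk1, at chr10:69352913-69353062 (minus strand), encodes the entry kinase. Ccnb2, at chr9:70421555-70421704 (minus strand), encodes cyclin B2. Cdc20, at chr4:118437344-118437493 (minus strand), and Ube2c, at chr2:164769779-164769928 (plus strand), encode the activator and the E2 enzyme of the anaphase-promoting complex. Top2a, at chr11:99024190-99024339 (minus strand), encodes the topoisomerase that untangles sister chromatids, and Mki67, at chr7:135716380-135716529 (minus strand), encodes the proliferation antigen Ki-67. Birc5, at chr11:117849087-117849236 (plus strand), encodes survivin of the passenger complex and was the member found in most mitotic cells. Kif23, at chr9:61946800-61946949 (minus strand), encodes a motor of the central spindle and was one of the members found most outside mitotic cells.
Cdk1: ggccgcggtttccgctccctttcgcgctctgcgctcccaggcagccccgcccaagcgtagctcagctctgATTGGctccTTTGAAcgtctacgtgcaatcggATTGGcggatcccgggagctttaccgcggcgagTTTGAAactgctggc
Ccnb2: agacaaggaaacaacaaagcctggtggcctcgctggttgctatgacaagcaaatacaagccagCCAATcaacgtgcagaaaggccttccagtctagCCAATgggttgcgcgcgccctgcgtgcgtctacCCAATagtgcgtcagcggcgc
Cdc20: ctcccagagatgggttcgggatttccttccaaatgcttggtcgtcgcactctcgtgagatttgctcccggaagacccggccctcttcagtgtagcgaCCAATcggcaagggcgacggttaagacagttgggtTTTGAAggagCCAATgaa
Ube2c: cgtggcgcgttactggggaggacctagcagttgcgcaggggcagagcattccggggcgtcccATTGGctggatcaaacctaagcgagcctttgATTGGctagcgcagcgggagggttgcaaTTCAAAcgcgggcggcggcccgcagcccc
Top2a: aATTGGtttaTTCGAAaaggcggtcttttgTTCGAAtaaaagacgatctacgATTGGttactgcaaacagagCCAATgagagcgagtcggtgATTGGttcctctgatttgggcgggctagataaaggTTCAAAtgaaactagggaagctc
Mki67: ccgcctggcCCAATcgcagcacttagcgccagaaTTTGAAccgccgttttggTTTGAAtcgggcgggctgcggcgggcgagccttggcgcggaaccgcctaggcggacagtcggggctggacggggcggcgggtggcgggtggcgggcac
Birc5: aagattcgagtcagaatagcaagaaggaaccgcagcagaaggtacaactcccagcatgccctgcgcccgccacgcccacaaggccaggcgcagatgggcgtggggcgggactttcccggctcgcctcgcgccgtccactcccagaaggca
Kif23: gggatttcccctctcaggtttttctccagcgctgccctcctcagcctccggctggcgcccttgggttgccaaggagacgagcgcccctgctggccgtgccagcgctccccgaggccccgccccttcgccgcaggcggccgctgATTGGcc

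In the full 300-base windows, TTTGAA or TTCGAA on either strand was present in 27 of the 36 members (75%), against 19.4% of 27025 promoters of the same length. CCAAT was present in 28 (77.8%), against 37.9% of all promoters, and both were present in 23 (63.9%), against 7.70%. In Cdk1 the nearest TTTGAA lay at position -15 and the nearest CCAAT, on the reverse strand, at -48, counted from the gene start. In Ube2c the corresponding positions were -29 and -57. Top2a held 4 CCAAT boxes and 3 of the other letters within the printed stretch. In Kif23 only 1 CCAAT stood in the stretch, at -7, and Birc5 had neither in the letters printed. These are matches of letters only.

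Cells were kept when they had at least 500 detected genes and 10000 counts, which left 1010 of 9357 barcodes. The 8347 barcodes left out reached at most 9686 counts and 2 members each, and none was mitotic as defined below. That call needs 15 members above 10 counts each, which so few counts rarely allow. It therefore cannot tell whether mitotic cells were left out. The summed member level of these barcodes was 6042 CPM (scaled counts, defined below). In kept cells it was 11304 CPM in mitotic cells and 1382 CPM in the rest. Kept cells numbered 190 at day 3, 107 at day 10, and 288, 143 and 189 at day 17 for m4528, m605 and m606, with 93 on the mixed plate. Summed counts per mouse ranged from 25449441 to 64254317, and the median counts per cell were 127190, 286917, 163429, 124663 and 117894 in the same order, so the day 10 mouse was sequenced most deeply. The same 96 well barcodes recurred on several plates, as a plate design requires, and no 2 of the 91 plate pairs agreed within sampling noise.

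Lineages were assigned by gates of 8 marker genes each, none of them a member, with a marker called found above 10 counts and at least 3 found markers needed. The gates held 337 stem, 112 megakaryocyte, 118 erythroid, 123 granulocyte-monocyte, 113 monocyte, 47 neutrophil and 33 basophil-mast cells, and 127 cells were unassigned. Means of a gate's own markers ran from 4.21 of 8 in the stem and neutrophil gates to 6.20 in the erythroid gate. The rule itself sets these to at least 3, so they are no separate check of the gates. Cells at the minimum of 3 ran from 7.08% of monocyte-gated to 39.4% of basophil-mast-gated cells, with 27.3% in the stem gate. Apart from the granulocyte-monocyte list, markers of other lineages were lower but not absent. At least 3 stem markers were found in 30.4% of megakaryocyte-gated and 22.8% of granulocyte-monocyte-gated cells, and 3 or more basophil-mast markers in 29.8% of neutrophil-gated cells. Markers of the granulocyte-monocyte list averaged 1.42 of 8 in stem-gated cells, 3.33 in megakaryocyte-gated cells, 4.81 in erythroid-gated cells and 4.76 in the granulocyte-monocyte gate itself. In the monocyte, neutrophil and basophil-mast gates they averaged 6.69, 7.09 and 6.67, above the gates' own markers at 5.46, 4.21 and 4.48. The list thus marks progenitors broadly. A stem call also needed more stem than granulocyte-monocyte markers. Markers of other cells were nearly absent: 3 or more were found for B or plasma cells in 0 of 1010 cells, for T or NK cells in 0, for macrophages in 1, for eosinophils in 2 and for stromal or endothelial cells in 2.

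Most cells had few or none of the members, and a smaller group had many. Of the 1010 cells, 234 (23.2%) had none of the 44 members above 10 counts, 396 (39.2%) had 1 to 4, 74 had 5 to 9, 47 had 10 to 14, 43 had 15 to 19, 94 had 20 to 29 and 122 had 30 or more, up to 42. A cell was called mitotic when at least 15 of the 44 were found, which gave 259 cells. The definition is transcript-based and takes in late G2, so it counts cells that express the mitotic programme and not cells seen dividing. The mitotic cells had a median of 29 members and the others a median of 1. Mitotic cells were also deeper, with a median of 294626 counts and 6936 genes against 116996 counts and 3864 genes, and the part of depth in the calls is given by the thinned values below. They held 86.9% of all member counts while holding 44.7% of all counts, and the summed member level was 11304 CPM in them (counts of the 44 genes scaled to a total of 1000000) and 1382 CPM in the rest.

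**Figure D1:**
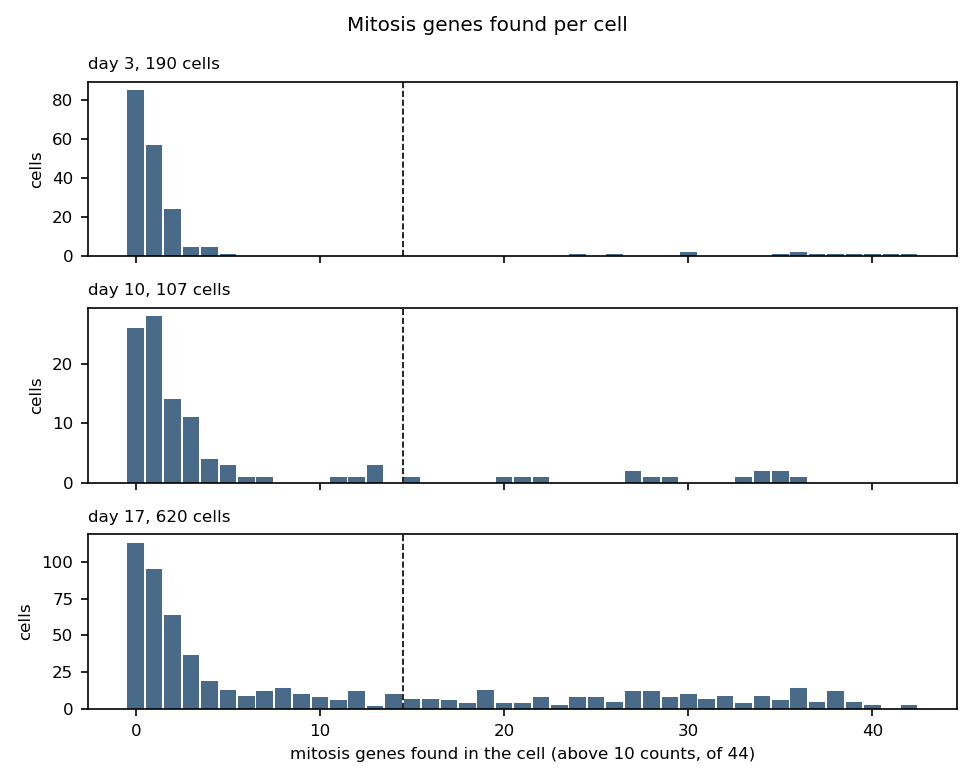
Number of the 44 mitosis genes found above 10 counts per cell (x axis) against the number of cells (y axis), in 3 panels for day 3, day 10 and day 17, with the dashed line at the 15 genes that define a mitotic cell. Cells pile up at 0 to 4 genes on every day, and the second group, which reaches 42 genes, is largest at day 17.

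Members differed, within roles as well as between them, in how fully they were found inside mitotic cells. To keep a member from helping to choose its own cells, each member was scored in cells that had at least 15 of the other 43 found. Birc5 (survivin) was found in 99.6% of these and its passenger complex partner Cdca8 (borealin) in 97.2%, with the third, the kinase Aurkb, at 81.2%. Among chromosome structure genes, Smc4 (a condensin subunit) stood at 95.3% and Top2a at 94.0%, while Cdca2 was lowest at 45.1%. Among kinases and cyclins, Cdca3 (a trigger of mitotic entry) reached 89.0%, cyclin A2 (Ccna2) 87.9% and Cdk1 87.0%, while the phosphatase Cdc25c reached 27.0%, Cks2 (a Cdk-binding subunit) 23.2% and the centrosome kinase Nek2 21.2%. Birc5 and Cdca8 were thus found above the fixed count cutoff in nearly every mitotic cell, and Cdc25c, Cks2 and Nek2 in a minority. Their levels differed too: over the mitotic cells Birc5 stood at 953 CPM and Cdca8 at 624 CPM. Cdc25c, Cks2 and Nek2 stood at 38.1, 19.8 and 26.0 CPM, so cells under the cutoff may still hold their transcripts. At similar levels, Hmgb2 (86.8 CPM) was found in 81.1% of cells and Ccnf (86.6 CPM) in 39.9%. The part of level in these shares was not tested. The cytokinesis genes ranged from 29.2% for the exchange factor Ect2 and 33.7% for anillin (Anln) to 57.2% for Racgap1 and 59.4% for Kif23. The kinetochore genes ranged from 34.0% for the checkpoint kinase Ttk to 85.5% for Cenpa, the histone variant of the centromere.

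Some members were also found where the programme was off. In cells with at most 4 of the other members, Smc4 was found in 28.2% of 642 cells, Cenpa in 13.1% of 634 and Kif23 in 8.72% of 631. Ccna2, Plk1, Kif2c, Nek2 and Cdc25c were found in 0 of 630 such cells each, which allows a share of up to 0.584% (exact 95% interval). Ube2c was found in 3 of 630. Of all Kif23 counts, 69.3% lay in mitotic cells, and of all Smc4 counts 70.1%, against 97.3% for Ube2c. Kif23 outside mitotic cells was seen in the stem gate of every mouse: 19 of 161 low cells at day 3, 8 of 58 at day 10, and 5 of 59, 1 of 11 and 8 of 26 at day 17. In the megakaryocyte gate it was seen in 0 of 15 low cells of m4528 (up to 21.8%) and 0 of 21 of m606 (up to 16.1%), and in the granulocyte-monocyte gate in 3 of 28 of m4528, 1 of 21 of m605 and 0 of 12 of m606. Over all mice it was seen in 1 of 27 low monocyte-gated and 1 of 9 low neutrophil-gated cells, and the difference between gates was not tested. The stem-gated shares overlap in their exact 95% intervals across the 5 mice, from 2.81% to 18.7% in m4528 to 14.3% to 51.8% in m606. Kif23 lies at chr9:61915905-61946774 on the minus strand, Smc4 at chr3:69004738-69034623 and Cenpa at chr5:30666777-30674830, both on the plus strand (GRCm38).

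**Figure D2:**
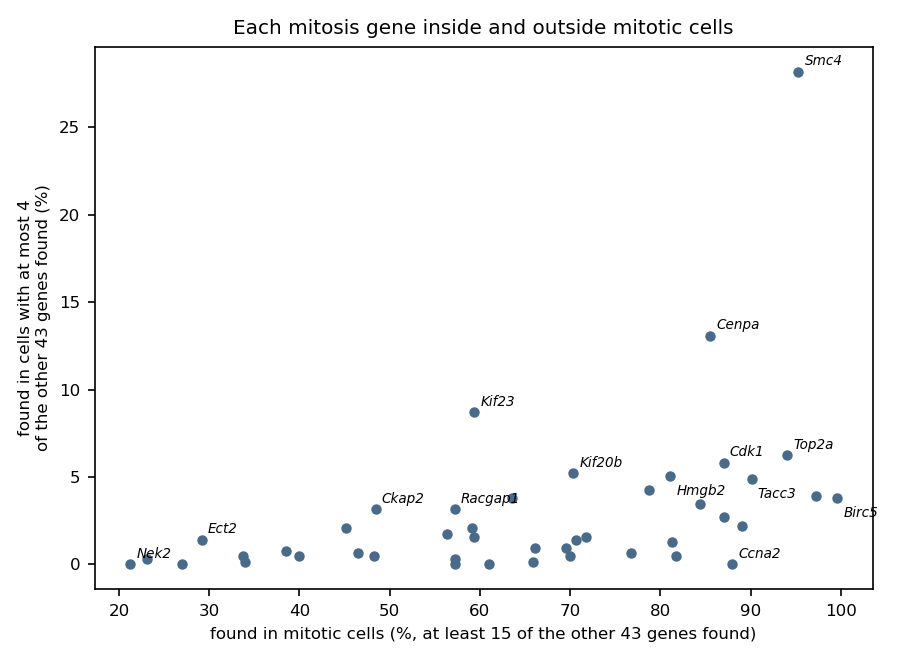
Each point is a mitosis gene: its share of mitotic cells in which it was found (x axis, %) against its share of cells with at most 4 other members found (y axis, %). Smc4, Cenpa and Kif23 stand above the rest on the y axis at 28.2%, 13.1% and 8.72%, while Nek2, Cks2, Cdc25c and Ect2 lie at the left.

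Mitotic cells made up more of the sample at day 17 than earlier. They were 13 of 190 cells (6.84%, exact 95% interval 3.69 to 11.4) in the day 3 mouse and 14 of 107 (13.1%, 7.34 to 21.0) in the day 10 mouse. At day 17 they were 80 of 288 (27.8%) in m4528, 48 of 143 (33.6%) in m605 and 68 of 189 (36.0%) in m606, a mean of 32.4% ± 4.21 (SD, n = 3). All 3 day 17 mice lay above both earlier mice. Setting these mice against the m4539 and m4533 pair, an exact two-sided permutation test gave p = 0.1, the smallest that 10 splits allow, and 0.3 after adjustment over the 3 tests of this kind, so the design cannot reach 0.05. Plates of 1 mouse differed: the day 10 plates held 1 of 33, 5 of 43 and 8 of 31 mitotic cells, and the plates of m605 held 7 of 48 (14.6%) and 41 of 95 (43.2%). With every cell thinned to 50000 counts and members found above 5, the shares were 7.03%, 12.4%, 23.0%, 31.1% and 33.3% in the order m4539, m4533, m4528, m605, m606, with 5, 2, 5, 24 and 12 shallower cells left out. In the stem gate the thinned cells gave 6 of 164, 0 of 60, 0 of 61, 0 of 5 and 0 of 18 mitotic cells.

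Within the gates, the mitotic share differed by lineage far more than by day. In the stem gate 6 of 167 cells (3.59%, 1.33 to 7.66) were mitotic at day 3, 0 of 60 at day 10 (up to 5.96%), and 0 of 61, 0 of 11 and 0 of 26 at day 17 (0 of 98 together, up to 3.69%, at a median of 73472 counts per cell). In the megakaryocyte gate, 1 of 5 was mitotic at day 3, 5 of 16 (31.2%) at day 10, and 9 of 30, 3 of 11 and 11 of 35 at day 17, a mean of 29.6% ± 2.11 (SD, n = 3). The erythroid gate had the highest shares, with 11 of 18, 27 of 36 and 31 of 42 cells at day 17 (70.0% ± 7.70), and all 5 of the erythroid-gated cells at days 3 and 10 (2 of 2 and 3 of 3) were mitotic. No day 17 mouse overlapped between the stem, megakaryocyte and erythroid gates. The neutrophil gate overlapped the erythroid gate at day 17, with 15 of 28, 3 of 6 and 4 of 6 cells. Neutrophil-gated cells were deep, at a pooled day 17 median of 316116 counts against 222646 for erythroid-gated cells. The neutrophil share was lower on thinned cells and with members above 100 CPM, as given at the end. The neutrophil gate had 56.7% ± 8.78, the monocyte gate 41.5% ± 9.04, the basophil-mast gate 34.3% ± 6.48 and the granulocyte-monocyte gate 17.5% ± 10.5 (SD, n = 3 each). In this order the neighbours from neutrophil to granulocyte-monocyte overlapped in their spread. The granulocyte-monocyte gate held 15 of 53, 2 of 27 and 4 of 24 mitotic cells. Between days, exact permutation tests gave p = 0.4 in the stem gate and p = 0.6 in the megakaryocyte gate (both 0.6 adjusted). The cells sampled also differed in makeup between days: stem-gated cells were 167 of 190 at day 3 and 98 of the 620 cells of day 17.

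**Figure D3:**
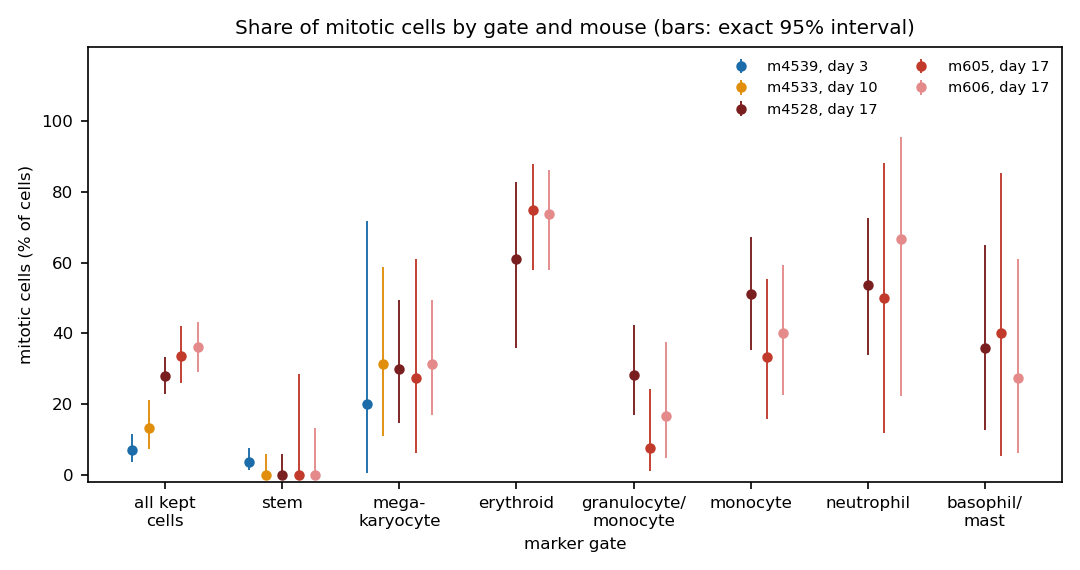
Share of mitotic cells (y axis, %) in all kept cells and in each marker gate (x axis), 1 point per mouse coloured by day, with exact 95% binomial intervals that cover counting error only. The stem gate stays at 0% to 3.59% in all 5 mice, and the erythroid gate lies at 61.1% or more.

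The stem gate value depends on how the gate is drawn. Each of 3 other ways to draw it, the last 2 chosen after seeing the data, put mitotic cells into it. With markers found above 100 CPM it held 2 of 60 at day 10 and 3 of 56 in m4528. Without setting stem against granulocyte-monocyte markers it held 2 of 65 at day 10, 6 of 91 in m4528, 0 of 15 in m605 and 1 of 38 in m606. With gates drawn on cells thinned to 50000 counts it held 2 of 57 at day 10, 4 of 58 in m4528, 0 of 2 in m605 and 0 of 15 in m606. Under all of these the stem gate stayed at or under 6.90% in every mouse, below the megakaryocyte gate of every mouse under the same setting.

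The 6 mitotic stem-gated cells of day 3 each carried most of the list. They held 30, 36, 39, 40, 41 and 42 members, at 232535 to 346023 counts per cell and 18898 to 32707 member CPM, on both plates of the mouse. Each supplied 9.64% to 16.6% of all member counts in the day 3 stem gate, so these 6 cells set the stem level of that mouse. They showed 3 to 5 stem markers and 0 to 3 megakaryocyte markers, and 3 to 14 of 20 DNA replication genes.

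The summed level of the members was likewise highest in the day 17 mice. It was 4016 CPM at day 3, 4761 at day 10 and 6345, 6284 and 7013 at day 17 (6547 ± 405, SD, n = 3), so the day 17 mice did not overlap the earlier ones. The sum weighs deep cells more, and the mean of the cells' own values was 1985, 2954 and 4846 ± 387 CPM. In such sums more cells with a transcript and more transcript per cell cannot be told apart. In the stem gate the sum was 2755 at day 3 against 1085, 965, 665 and 865 later, and in the megakaryocyte gate it was 5922, 6391, 6036, 5954 and 7104 in the order m4539, m4533, m4528, m605, m606. The stem gate had the lowest sum of all gates in every mouse, and the megakaryocyte gate differed little between mice.

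Of the 44 members, 20 were higher in all 3 day 17 mice than in both earlier mice, against 11.9% of 10607 genes at a mean of at least 5 CPM. Only Ckap2, a spindle-associated protein, was lower in all 3, against 26.9% of genes. Cdk1 stood at 146, 254, 378, 267 and 309 CPM in the order m4539, m4533, m4528, m605, m606. Birc5 stood at 261, 260, 432, 751 and 652, and Top2a at 212, 221, 449, 332 and 422. Mki67 stood at 76.9, 130, 199, 167 and 218. All 4 were low at day 3 and did not overlap between day 17 and earlier. The cytokinesis motor Kif23 differed, at 125, 78.2, 114, 59.8 and 107 CPM, with the groups overlapping, and the means of Cdc25c, Kif2c, Ckap2, Anln, Racgap1 and Kif23 at day 17 were below the day 3 value. The median ratio of the day 17 mean to day 3 was 1.56 over the 44 members, and to day 10 it was 1.28.

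The slope over day, fitted with edgeR's quasi-likelihood test on counts summed per mouse with a term for the count table, called 0 of 44 members at an adjusted p under 0.05. Of 16740 genes tested 0 (0%) were called, while 11 members and 1473 genes had an unadjusted p under 0.05. DESeq2 called 2 members, Cdk1 and Mki67, and 463 genes. The median log2 change of the members per 14 days was 0.74 (0.37 without m4528), against 0.03 over all genes, and Cdk1 had the lowest adjusted p (log2 1.49, SE 0.30, adjusted p = 0.329). The test had little power, since it recovered 0% of genes simulated to change 4-fold. The second count table held day 17 mice alone, so with the table term m605 and m606 did not inform the slope. It rests on m4539, m4533 and m4528, 1 mouse per day. In the megakaryocyte gate, which had too few day 3 cells, it rests on m4533 against m4528. In the stem gate 0 of 42 members tested were called (0% of 12529 genes, 1 member and 200 genes at an unadjusted p under 0.05), with a median of -3.36 that became 0.57 without the 6 mitotic day 3 cells. In the megakaryocyte gate 0 of 44 were called (0% of 13082 genes, 0 members and 910 genes unadjusted), with a median of -0.39.

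Members were found most often in erythroid-gated cells and least in stem-gated cells. The erythroid gate had the highest share of cells with the gene above 10 counts for 40 of 44 members, and the stem gate the lowest for 42. No such ranking over all genes is given, so these counts are not read as particular to the members. The median share over members was 2.52% in the stem gate, 25% in the megakaryocyte gate, 56.4% in the erythroid gate, 16.7% in the granulocyte-monocyte gate, 31.9% in the monocyte gate, 36.2% in the neutrophil gate and 18.2% in the basophil-mast gate. Stem-gated cells were shallower, at a median of 116996 counts against 242974 for erythroid-gated and 159794 for megakaryocyte-gated cells. Neutrophil-gated cells were the deepest, at a median of 311571 counts. The part of depth in these shares was not tested. The most widely found members were Cenpa in the erythroid gate (90.7% of 118 cells) and Smc4 in the stem gate (24.6% of 337 cells).

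**Figure D4:**
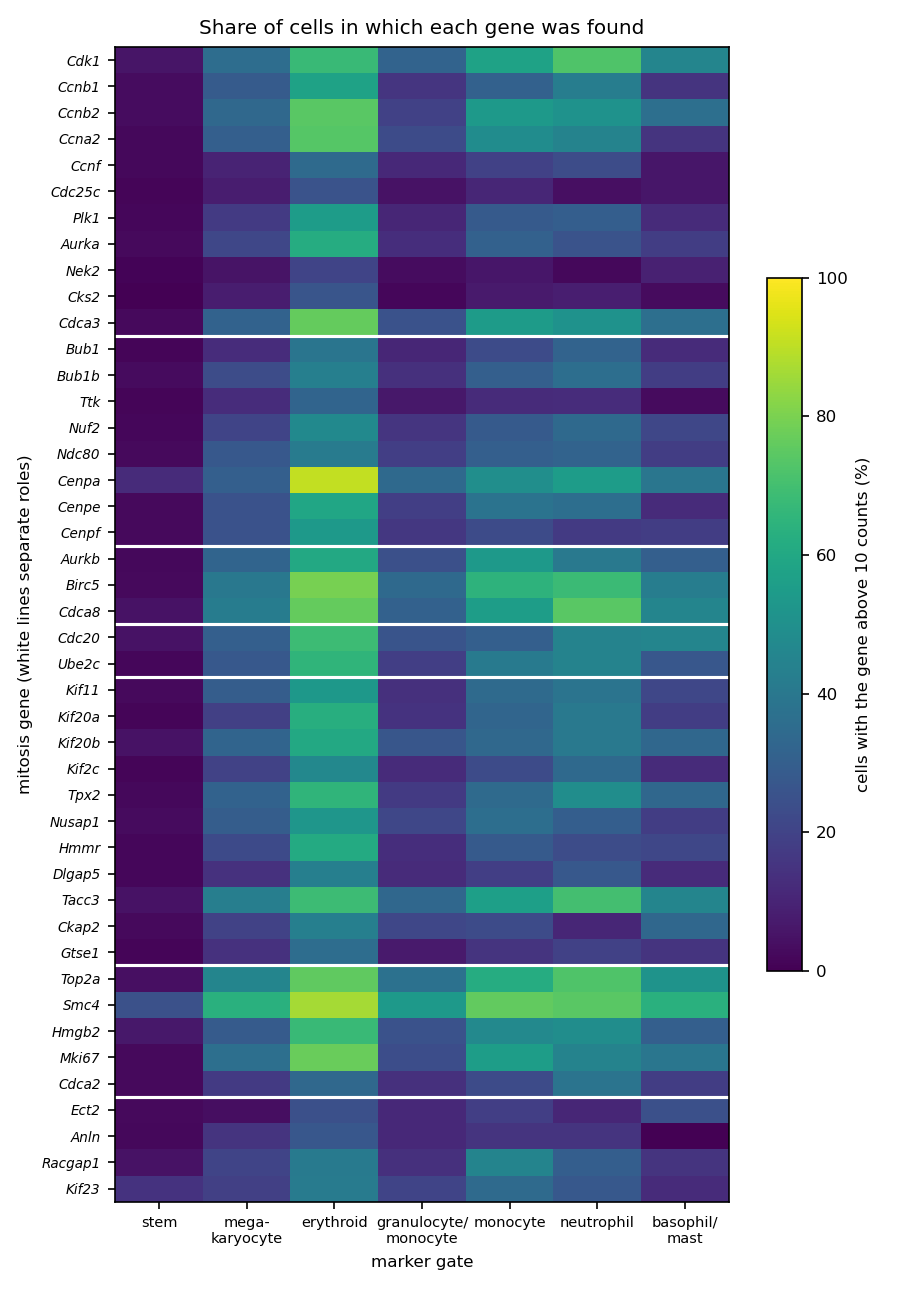
Share of cells (%, colour) with each mitosis gene (y axis, grouped by role) above 10 counts in each marker gate (x axis). The erythroid column is highest for 40 of 44 genes and the stem column lowest for 42, with Smc4, Cenpa and Kif23 the most visible genes in the stem column. No such ranking over all genes is given.

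Megakaryocyte-gated cells carried more of the mitotic programme than stem-gated cells of the same mice. In the fit of all gates with the mouse as a block, 33 of 44 members were higher and 0 lower in the megakaryocyte gate, while 2.26% of 17134 genes tested were called higher and 1.53% lower. The median log2 difference was 3.81 for the members and -0.02 for all genes. Birc5 stood at 10.6, 18.7, 53.5 and 38.2 CPM in the stem gate of m4533, m4528, m605 and m606 and at 330, 371, 1166 and 635 CPM in the megakaryocyte gate, without overlap (log2 4.49, SE 0.38). Cdk1 stood at 76.2, 11.5, 5.54 and 4.31 against 335, 388, 93.4 and 230 CPM, also without overlap (log2 4.21, SE 0.50). Hmmr, a spindle and hyaluronan-binding protein, was at most 3.08 CPM in these stem gates and 64.7 to 171 CPM in the megakaryocyte gates (log2 6.47, SE 0.57). Every megakaryocyte value of these genes exceeded every stem value.

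By role, the megakaryocyte gate was higher for 10 of 11 kinases, cyclins and partners, 5 of 8 checkpoint and kinetochore genes, 3 of 3 passenger genes, 2 of 2 anaphase-promoting genes, 9 of 11 spindle and motor genes, 4 of 5 chromosome structure genes and 0 of 4 cytokinesis genes. Among the kinases, Ccna2 differed by log2 4.75 (SE 0.57), Plk1 by 5.05 (SE 0.74) and cyclin B1 (Ccnb1) by 3.82 (SE 0.80), and Ccnf, the F-box cyclin, was the one that did not pass. Smc4 and Hmgb2 (a chromatin protein) differed least among those that passed, by 1.83 (SE 0.31) and 1.81 (SE 0.40). The stem levels of Smc4 were 254, 257, 83.1 and 102 CPM and its megakaryocyte levels 625, 562, 648 and 486 CPM in the order m4533, m4528, m605, m606. Of the cytokinesis genes, Racgap1 had log2 2.44 (adjusted p = 0.0968), Anln 3.76 (adjusted p = 0.166), Ect2 0.37 (adjusted p = 0.94) and Kif23 -0.41 (adjusted p = 0.882). Kif23 stood at 146, 65.3, 29.5 and 145 CPM in the stem gate and 8.37, 19.1, 112 and 147 CPM in the megakaryocyte gate, so it was lower in megakaryocyte-gated cells of m4533 and m4528 and higher in those of m605 and m606. In 4 of 4 mice, 37 of the 44 members were higher in the megakaryocyte gate, against 11.6% of the genes tested.

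The erythroid gate differed from the stem gate in the same direction. Both gates were present in the 3 day 17 mice, and the contrast came from the same fit of all gates and mice. In it 37 of 44 members were higher and 0 lower, against 5.73% of genes called higher and 4.97% lower. The median log2 difference was 4.45 for the members and 0.10 for all genes. All 11 spindle and motor genes passed, with Hmmr at 75.5 to 189 CPM in the erythroid gates, as did 10 of 11 kinases and cyclins, 6 of 8 checkpoint and kinetochore genes, 3 of 3 passenger genes, 2 of 2 anaphase-promoting genes and 4 of 5 chromosome structure genes. Ube2c stood at 1.18, 0.00 and 5.54 CPM in the stem gate of m4528, m605 and m606 and at 318, 295 and 463 CPM in the erythroid gate (log2 7.72, SE 0.69). Ccna2 stood at 4.05, 7.39 and 2.46 against 258, 392 and 368 CPM (log2 6.12, SE 0.64). Both were separated between gates in every mouse. Nek2 had 0 counts in the stem gates of these mice and was at least 45.2-fold higher in the erythroid gate, against a floor of 3 counts over the 3 mice, and with Nek2 at that bound the median of the members stayed 4.45. Of the cytokinesis genes, Racgap1 alone passed (log2 2.83, SE 0.80, adjusted p = 0.0367), while Kif23 had -0.38 (adjusted p = 0.863). Ccnf, Ttk, Cenpe (the kinetochore motor), Cdca2 (a phosphatase-targeting protein), Anln and Ect2 did not pass.

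Between the erythroid and megakaryocyte gates only Cenpa passed among the 44, against 1.3% of genes called higher in the erythroid gate and 2.08% lower. It stood at 871, 1146 and 1285 CPM in the erythroid gate of m4528, m605 and m606 and at 246, 148 and 499 CPM in the megakaryocyte gate, without overlap (log2 1.94, SE 0.36, adjusted p = 0.00833). Its call was lost when m4528, m605 or m606 was left out, which left 0 members called. The 44 members had a median log2 difference of 0.63 and all genes 0.16, and 21 of 44 members were higher in the erythroid gate in 3 of 3 mice, against 20.4% of the genes tested. A count of 1 does not show that the other members are equal in these gates.

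The other progenitor gates were also higher than the stem gate. In the granulocyte-monocyte gate 27 of 44 members were higher (median log2 3.56 against 0.03 for all genes), where 1.08% of genes were called higher and 0.228% lower. In the monocyte gate 36 were higher (3.78 against 0.09), where 4.77% of genes were called higher and 3.02% lower. In the basophil-mast gate 22 were higher (3.02 against -0.27), where 1.66% of genes were called higher and 1.25% lower. In none of the 3 was a member lower. Cdk1 stood at 461, 226 and 296 CPM in the granulocyte-monocyte gate of m4528, m605 and m606, at 445, 226 and 344 CPM in the monocyte gate and at 422 and 185 CPM in the basophil-mast gate of m4528 and m606. All of these lay above the stem gate values, which were 4.31 to 11.5 CPM in the same mice. All 5 contrasts with the stem gate called the same 20 members, among them Cdk1, Ccna2, Plk1, Bub1 (a checkpoint kinase), Aurkb, Birc5, Cdca8, Ube2c, Hmmr, Top2a and Mki67, and none called Ccnf, Ttk, Cenpe, Cdca2, Ect2, Anln or Kif23. Of all genes tested, 0.63% were called higher in all 5. These contrasts share their stem-gated cells, so their calls are not independent. The neutrophil gate had enough cells in m4528 only (28 cells), so it has no test. Its members summed to 6048 CPM, against 965 CPM in the stem gate and 8015 CPM in the granulocyte-monocyte gate of that mouse. The median ratio of the members to the stem gate was 21.3, and no such value over all genes is given.

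These counts move with the gate and with the mice. Without m606 the numbers of members called were 9 for the megakaryocyte gate, 22 for the erythroid gate, 1 for the granulocyte-monocyte gate and 16 for the monocyte gate, and without m4528 they were 17 for the megakaryocyte gate, 3 for the granulocyte-monocyte gate and 18 for the monocyte gate. Under the 3 other ways to draw the stem gate, 8, 8 and 10 members were called in the megakaryocyte contrast, and 0 each in the granulocyte-monocyte contrast. Birc5, Cdca8 and Top2a passed in the megakaryocyte contrast under all 3 as well as under the gate used here, and 16 members did in the erythroid contrast, among them Cdk1, Ccnb1, Ccna2, Aurka (a spindle pole kinase), Cenpa, Birc5, Ube2c, Hmmr, Top2a, Smc4 and Hmgb2. The median of the members stayed above 0 in each of these 5 contrasts under every alternative, between 1.0 and 5.10.

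Genes of DNA replication and further mitosis genes differed between the gates in the same direction. Of 20 DNA replication genes, 14 were higher in the megakaryocyte gate, 17 in the erythroid gate, 9 in the granulocyte-monocyte gate and 15 in the monocyte gate than in the stem gate, and 0 were lower. Mcm5, a subunit of the replicative helicase, stood at 27.6, 86.9, 14.8 and 30.8 CPM in the stem gate of m4533, m4528, m605 and m606 and at 292, 314, 494 and 182 CPM in the megakaryocyte gate (log2 3.14, SE 0.42). The replication clamp Pcna differed less, by log2 1.56 (SE 0.29) in the megakaryocyte and 1.98 (SE 0.31) in the erythroid contrast. Of 32 other mitosis genes outside the 44, 22, 24, 17 and 22 were higher in the same 4 gates, against 2.26%, 5.73%, 1.08% and 4.77% of all genes. Among them in the megakaryocyte contrast were the kinetochore gene Spc24 (log2 4.92, SE 0.39) and the chromokinesin Kif22 (log2 4.88, SE 0.48). These counts also moved with the stem gate. With markers above 100 CPM, gates on thinned cells, and stem not set against granulocyte-monocyte markers, the replication genes called higher were 9, 9 and 5 for megakaryocyte, 18, 16 and 14 for erythroid, 1, 2 and 1 for granulocyte-monocyte and 14, 14 and 11 for monocyte. The other mitosis genes were 4, 5 and 8, then 12, 10 and 12, then 0, 1 and 0, and then 7, 7 and 7 in the same gates.

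Genes that act in G1 went in both directions. Of 10 genes of G1 entry, Cdk6 (a cyclin D partner) and Ccne2 (cyclin E2) were higher in the megakaryocyte gate, with Cdk6 at 115, 79.3, 12.9 and 104 CPM in the stem gate and 440, 423, 521 and 532 CPM in the megakaryocyte gate (log2 2.71, SE 0.44). In the erythroid gate 4 were higher (Ccne2, Ccne1, Cdk4 and Cdk6) and cyclin D2 (Ccnd2) was lower by log2 -2.47 (SE 0.31). Of 8 CDK inhibitors tested, Cdkn1c (p57) was the one lower in the megakaryocyte gate, at 387, 191, 517 and 175 CPM in the stem gate against 103, 31.5, 16.5 and 39.7 CPM (log2 -3.18, SE 0.78, adjusted p = 0.0389). In the erythroid gate Cdkn1c stood at 1.42, 0.452 and 1.68 CPM and was lower (log2 -8.00, SE 1.10), as was Cdkn2d (p19, log2 -2.43, SE 0.62). Stem-gated cells were therefore high in p57 and low in the members in every mouse compared. Of 13 cell cycle transcription factors, E2f8 and Mybl2 (B-Myb) were higher in the megakaryocyte gate and E2f8, Mybl2 and E2f2 in the erythroid gate. Foxm1, a known activator of late cell cycle genes, had log2 2.50 (adjusted p = 0.316) and 3.47 (adjusted p = 0.135) and passed in none of these contrasts. Its levels were low, at a mean of 3.88 CPM (0 to 16.2) in the stem gate, 10.2 (0 to 33.7) in the megakaryocyte gate and 12.1 in the erythroid gate. Mybl2 was low too, at 0.294, 18.2 and 13.2 CPM in these gates. Not passing does not show that Foxm1 was equal between gates. Under the other ways to draw the stem gate, Cdkn1c passed in the megakaryocyte contrast with markers above 100 CPM and not under the other 2.

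Replication and mitosis genes were not always found in the same cells. With a cell called replication-high when at least 10 of the 20 replication genes were found, 203 cells were replication-high and mitotic, 141 replication-high alone, 56 mitotic alone and 610 neither. In the erythroid gate 72.0% were both. In the megakaryocyte gate 19 of 112 cells were both, 27 replication-high alone and 15 mitotic alone, and in the monocyte gate 33.6% were replication-high alone. In the stem gate 96.4% were neither. Of the 6 mitotic stem-gated cells of day 3, 1 was replication-high as well, and 4 other stem-gated cells of that mouse were replication-high alone. Both calls rest on counts per cell, and the median depth was 91670 counts in non-mitotic against 307755 in mitotic erythroid-gated cells.

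Across the 1010 cells, the members' log2(CPM + 1) values were correlated in every one of the 946 pairs, with a median Pearson r of 0.475, from 0.245 for Smc4 and Kif23 to 0.702 for Birc5 and Cdca8. These values describe cells that share plates, mice and depth, and carry no test. The members closest to the mean of the rest were Ube2c (r = 0.830), Birc5 (0.817) and Ccna2 (0.808), and the furthest were Ect2 (0.499) and Kif23 (0.516). Among 10123 other genes, those most like the members' mean were Kif22 (r = 0.795), Prc1 (a spindle midzone protein, 0.776) and CASC5 (a kinetochore scaffold, 0.755), followed by Pbk, Spc24, Ckap2l, Kif15, Ska1, Esco2 and Ncaph (0.695). The most opposite were Ifitm1 (r = -0.488), a stem gate marker, Gimap6, B2m, Hlf, also a stem gate marker, and GM19590.

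In the annotation, 8 members overlap a coding gene on the other strand. For Cdc25c, Cdca8, Nusap1 and Tacc3 the overlap lies outside their last 1000 bases, and for 4 it lies within them, where a 3′ protocol reads: Ccna2 with Exosc9, Cdc20 with Elovl1, Kif20a with Cdc23 and Ube2c with Tnnc2. The labels do not say whether counting used strand, so reads of these pairs cannot be told apart.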

How the data were processed

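Single Lin- Tom+ mouse cells in 96-well plates were measured in 14 plates of 5 mice. The authors deposited raw counts per gene and barcode in 2 tables, the first with m4539, m4533 and m4528 and the second with m605 and m606. Reads were placed on build GRCm38, per the submitters' processing notes. Not given in the sources used here were an aligner, a counting tool, its use of strand and any molecular identifiers. The members and lists were chosen with earlier results of these data known.

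Barcodes with at least 500 detected genes and 10000 counts were kept, and a gene counted as found above 10 counts. A cell went to the committed lineage (megakaryocyte, erythroid, neutrophil, monocyte or basophil-mast) with most found markers of 8 if these were at least 3 and more than the stem markers, and a tie left it unassigned. Otherwise it was stem with at least 3 stem markers, more than of any other list, or granulocyte-monocyte with at least 3 of those and more than stem. Doublets were not called. A cell with at least 15 of the 44 members found was called mitotic. CPM are counts scaled to a total of 1000000 over the genes in both tables, summed over cells. Counts were summed per mouse, or per mouse and gate with at least 10 cells, and tested in edgeR 4.0.16 (R 4.3.3) with TMM scaling, filterByExpr, the quasi-likelihood test and Benjamini-Hochberg adjustment over all genes. The slope over day had a term for the count table, and all gates entered 1 fit with the mouse as a block, since gates of a mouse come from the same animal. The mouse is the replicate. Shares were compared by exact permutation tests in Python 3.11.15 and scipy 1.17.1. Intervals are exact binomial ones and, like the limits for 0 found, cover counting error only. Alternatives were DESeq2 1.42.0, other scaling and filters, each mouse left out, other gate and mitotic thresholds, thinned cells and the mixed plate added. On simulated counts with 200 genes changed 4-fold, the megakaryocyte contrast recovered 7.14% of them among 15876 genes and the erythroid contrast 4.30% among 15899, with 0 false calls. All 44 members could be named, and of other lists the genes with the lowest p, at most 4 per list and contrast, with Foxm1, Mybl2, Pcna, Mcm5, Cdk6 and Cdkn1c in any case. The inhibitor Cdkn2b was not analysed here.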

Additional observations from a re-analysis of the deposited data

Results flagged for a closer look

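Among 46 values compared over the 9 day 17 plates, the plate of m605 and m606 together among them, 1 stood apart, where chance sets about 1 in 20 apart. Cdca8, the borealin gene of the passenger complex, stood at 228 CPM on plate 6 of m4528, and the next lowest plate was at 342, with a median of 380 and a highest value of 409. That mixed plate, which entered no comparison between groups, had 38.7% mitotic cells and a summed member level of 6701 CPM, both above the day 3 and day 10 mice.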

How the results depend on the processing

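No paired analysis was possible for the comparison of days because each mouse was sampled on 1 day and plate numbers do not link mice. In the gate contrasts the mouse is the block, and without it the members called were 11 for megakaryocyte against stem (33 with it), 29 for erythroid (37), 2 for granulocyte-monocyte (27), 18 for monocyte (36) and 4 for basophil-mast (22). Leaving out each mouse gave 9 to 33, 22 to 38, 1 to 27, 16 to 36 and 19 to 22 members in that order, and 0 to 1 for erythroid against megakaryocyte. Without m605 and without m4533 the granulocyte-monocyte contrast called 15 and 16. With markers found above 100 CPM the 5 contrasts called 8, 23, 0, 11 and 5, with stem not set against granulocyte-monocyte markers 8, 27, 0, 13 and 2, and with gates on thinned cells 10, 19, 0, 11 and 1 (the last 2 settings were chosen after seeing the data). With at least 20 cells per mouse and gate they called 15 for megakaryocyte and 12 for granulocyte-monocyte, and with day 17 mice alone 17 for granulocyte-monocyte. DESeq2 called 2 members for erythroid against megakaryocyte and 2 for the slope over all cells, where it called 463 genes against 0, and 4 markers in place of 3 left 0 for erythroid against megakaryocyte. Over all alternatives, the genes called ran from 54 to 2064 for megakaryocyte against stem (649 here) and from 358 to 3490 for erythroid (1833 here). The cause was not tested.

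The differences of 3 genes that passed in none of the contrasts with the stem gate changed sign. In the megakaryocyte contrast Ccnf had log2 -0.58 without m4533, -0.87 without m606, -0.60 with day 17 mice alone and -0.046 with stem not set against granulocyte-monocyte markers. Ect2 had -1.18 without m4528, -1.47 with markers above 100 CPM, -0.15 without the block, -1.18 with stem not set against granulocyte-monocyte markers and -1.17 on thinned gates. Kif23 had 0.50 without m4533 and 0.49 with day 17 mice alone. In the erythroid contrast Kif23 had 0.12 without m4533, 0.11 without m606 and 0.10 with day 17 mice alone. With each mouse left out in turn, Ccnf ran from -0.87 to 4.09, Ect2 from -1.18 to 1.60 and Kif23 from -1.39 to 0.50 in the megakaryocyte contrast, and Kif23 from -1.16 to 0.12 in the erythroid contrast. The median of the members in the slope over day of the stem gate, -3.36, became 0.57 without the mitotic stem-gated cells, 0.33 with markers above 100 CPM, 0.30 with stem not set against granulocyte-monocyte markers and 0.42 with gates on thinned cells. Of 2999 values of single members, 2222 kept direction and side of the threshold, 733 fell below it and 30 rose above it.

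Mitotic shares at day 17 moved with the threshold. With 10 or 22 members in place of 15 they were 38.4% and 25.0% over all cells, 35.8% and 20.5% in the megakaryocyte gate, 56.1% and 31.0% in the monocyte gate and 71.4% and 26.2% in the neutrophil gate, and with 22 they were 60.8% in the erythroid and 21.8% in the basophil-mast gate. With 500 genes as the only filter they were 21.6% over all cells and 3.26% at day 10. With 4 markers they were 31.7% in the megakaryocyte, 81.9% in the erythroid, 28.1% in the granulocyte-monocyte, 66.1% in the neutrophil and 18.5% in the basophil-mast gate. With markers above 100 CPM they were 33.3% in the megakaryocyte and 1.79% in the stem gate. With members above 100 CPM they were 28.6% in the neutrophil gate. Thinned cells gave 25.9%, 60.6% and 28.5% in the megakaryocyte, erythroid and neutrophil gates. Gates on thinned cells gave 2.30%, 58.8% and 36.1% in the stem, erythroid and neutrophil gates, and stem not set against granulocyte-monocyte markers gave 3.08% in the stem gate. The summed level as the mean of the cells' own CPM was 1985, 2954 and 4846 at days 3, 10 and 17, against 4016, 4761 and 6547. Depth limits what is found: at 1 mouse per early day and few cells per gate, a gene at 0 was not detectable at this depth.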
